A study of Mus musculus with 8 samples.

Results

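The lysosomal enzymes and membrane proteins described here are 39 genes of the 47643 in the deposited count table, chosen by their gene symbols and roles. They comprise 12 proteases, 8 glycosidases, 8 genes of lipid breakdown, 9 membrane proteins, the transcription factor gene Tfeb and Grn, which encodes progranulin. Cd68, Ctss and Laptm5 were set apart from the other 36 because they are enriched in phagocytes. Lysosomes are acidic compartments in which hydrolases break down proteins, glycans and lipids that arrive by endocytosis, phagocytosis and autophagy. A proton pump keeps the lumen acidic, membrane proteins such as LAMP1 and LAMP2 line the inner face, and transporters such as NPC1 export the products. TFEB switches on many of these genes together by binding a short DNA element, called CLEAR, which contains the E-box CACGTG. In the central nervous system every cell type has lysosomes, while microglia and macrophages, which engulf debris, carry particularly many, and inherited loss of single members causes storage diseases of neurons and myelin.

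RNA was sequenced from whole spinal cord of 8 C57BL/6 mice, 4 labelled homozygous and 4 labelled heterozygous, with 1 library per mouse. The treatment note, shared by all 8 samples, describes intraperitoneal tamoxifen at 100 mg/kg to delete Arf1, a small GTPase that recruits coat proteins to Golgi membranes, and ages of 2 to 10 months apply to the study as a whole. The study concerned the function of Arf1 in neurons, and its title names peroxidated lipids, demyelination and the inflammasome of microglia. The labels give neither the Cre driver, nor the alleles beyond heterozygous and homozygous, nor the sex, age or time after tamoxifen of single animals, and no wild-type group entered the comparison.

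The homozygous libraries held 26321522 to 37879426 expected counts, and the heterozygous libraries 29857210 to 37803594. Arf1 itself was at 307, 22.5, 22.9 and 39.9 CPM (counts scaled to library size with TMM factors, used for all values below unless TPM is named) in the libraries labelled homozygous replicates 1 to 4, against 334, 296, 322 and 303 CPM in heterozygous replicates 1 to 4. The library labelled homozygous replicate 1 thus went against its label, and results are given over 7 libraries without it and, for most members described singly, also over all 8. Homozygous replicate 3 had 2.44% ribosomal bases and 92.36% mapped reads, while the other libraries had 0.10% to 0.34% and 98.33% to 98.53%. The RNA integrity number was 8 in homozygous replicate 4 and 9 in the other 7 libraries. Summed markers of neurons lay at 7668 to 8467 CPM in homozygous replicates 2 to 4 and 7805 to 9168 CPM in heterozygous cords, those of astrocytes at 4319 to 5256 CPM in these homozygous and 4494 to 5353 CPM in heterozygous cords, and those of oligodendrocytes at 7845 to 15357 CPM in these homozygous and 9908 to 11367 CPM in heterozygous cords, so the defining cell types of spinal cord were all present. Markers of Schwann cells, which belong to nerve roots, summed to 120 to 180 CPM in homozygous replicates 2 to 4 and 237 to 717 CPM in heterozygous cords and did not overlap, and those of endothelial cells, at 105 to 176 CPM in these homozygous and 182 to 238 CPM in heterozygous cords, did not overlap either. Meningeal fibroblast markers lay at 154 to 186 CPM in homozygous replicates 2 to 4 and 140 to 276 CPM in heterozygous cords and border macrophage markers at 5.88 to 8.42 CPM in these homozygous and 5.55 to 10.7 CPM in heterozygous cords. In the library labelled homozygous replicate 1 the sums were 8422 CPM for neurons, 4559 for astrocytes, 10843 for oligodendrocytes, 122 for Schwann cells, 156 for endothelial cells, 133 for fibroblasts and 5.54 for border macrophages. Over 7 libraries Nefl of the neuronal, Col3a1 of the fibroblast and Slco1c1 of the endothelial markers fell by edgeR's test, and no marker of astrocytes, oligodendrocytes, Schwann cells, border macrophages or monocytes and neutrophils passed it. Only 4 of the 8 listed markers of monocytes and neutrophils and 6 of the 7 of border macrophages were tested. The part of these cell types in the lysosomal values below was not tested.

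All 39 genes were detected and tested in every library set, over a wide range of levels. TPM, which is scaled per transcript length, allows levels to be compared between genes, and homozygous levels are given here for replicates 2 to 4. The TPM ranges do not serve to compare the genotypes. On log2(TPM + 1) the median gene tested shifted to -0.175 in homozygous over heterozygous cords over 7 libraries. The genotypes are compared mainly in CPM and by edgeR below. Psap, which encodes the precursor of the saposins that help hydrolases reach their lipid substrates, was the most abundant member at 1117 to 1238 TPM in homozygous and 1215 to 1319 TPM in heterozygous cords. It was followed by the aspartic protease gene Ctsd at 376 to 559 TPM in homozygous and 347 to 442 TPM in heterozygous cords, by Lamp1 at 257 to 330 TPM in homozygous and 324 to 377 TPM in heterozygous cords, and by the cysteine protease gene Ctsb at 216 to 251 TPM in homozygous and 229 to 244 TPM in heterozygous cords. The library labelled homozygous replicate 1 had 1310 TPM of Psap, 397 of Ctsd, 334 of Lamp1 and 235 of Ctsb. In the heterozygous libraries Psap alone made up 33.7% of the summed TPM of the members, and Psap, Ctsd and Lamp1 together 53.45%. The median member was at 38.7 TPM, 7 members averaged at least 100 TPM and 5 averaged under 10 TPM.

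The lower end of the order held members with narrower cellular roles beside housekeeping enzymes. Laptm5, a lysosomal membrane protein of blood-derived cells and microglia, ranked 25 of 39 with 14.8 to 23.4 TPM in homozygous and 22.6 to 29.3 TPM in heterozygous cords. Cd68, the scavenger receptor-like lysosomal glycoprotein of phagocytes, ranked 34 with 12.2 to 20.1 TPM in homozygous and 9.83 to 11.9 TPM in heterozygous cords. Ctss, a cysteine protease of antigen-presenting cells that stays active at neutral pH, was far more abundant, ranking 8 with 77.9 to 117 TPM in homozygous and 78.8 to 92.2 TPM in heterozygous cords. Tfeb stood at 4.46 to 6.63 TPM in homozygous and 6.07 to 9.12 TPM in heterozygous cords, and the last member, Ctsk, best known from osteoclasts, at 1.78 to 3.73 TPM in homozygous and 2.81 to 4.52 TPM in heterozygous cords. The library labelled homozygous replicate 1 had 25.2 TPM of Laptm5, 11.2 of Cd68, 103 of Ctss, 5.71 of Tfeb and 2.76 of Ctsk. Of the 38 neighbouring pairs in this order, 30 overlapped in range over the heterozygous libraries, so only a few steps, such as those from Psap to Ctsd and from Lamp1 to Ctsb, exceeded the spread between animals.

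**Figure D1:**
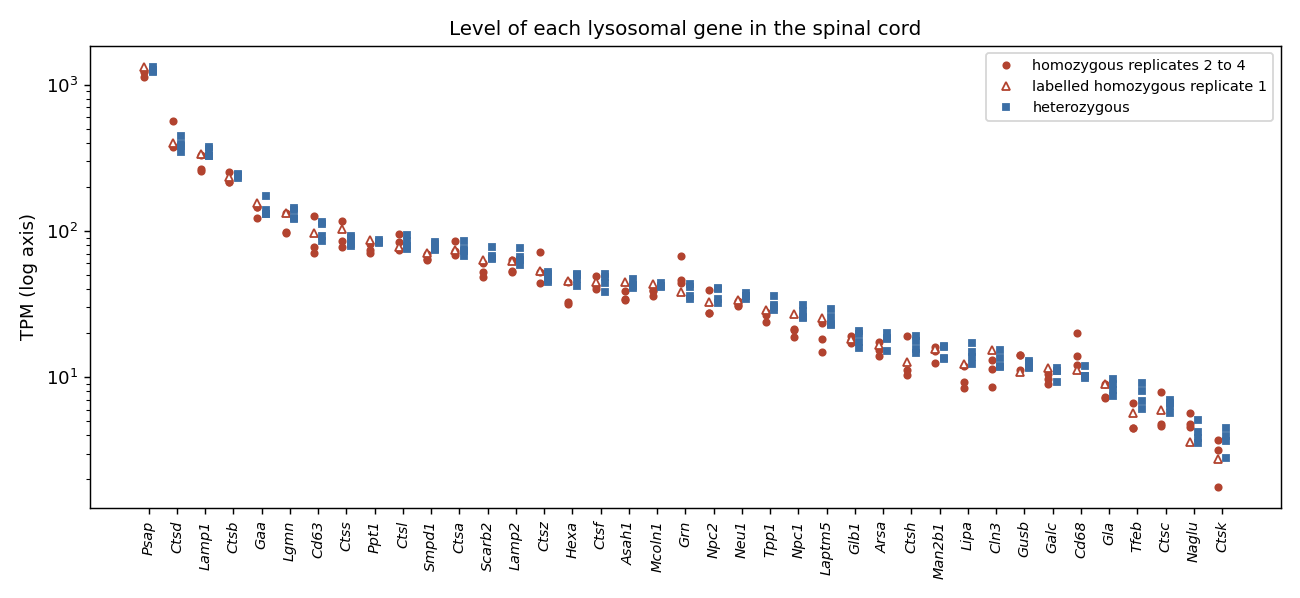
Level of each of the 39 lysosomal genes in TPM on a log axis, ordered by the heterozygous mean, with 1 point per library (homozygous replicates 2 to 4 as circles and the library labelled homozygous replicate 1 as an open triangle, left of heterozygous squares). Psap stands above 1000 TPM in every library, and Gla, Tfeb, Ctsc, Naglu and Ctsk lie under 10 TPM.

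The promoters of the members are shown because TFEB acts through the CACGTG E-box. RefSeq promoter windows (GRCm38.p6), which run from 250 bases before to 50 bases after a gene's annotated start, matched 35 members with 41 windows, and Asah1, Ctsb, Ctsh and Npc1 had no entry. CACGTG, which reads the same on both strands, occurred in a window of 13 of the 35 members (37.1%), against 2187 of the 27025 genes with a window (8.09%). The 13 were Arsa, Cln3, Ctsa, Ctsd, Ctsf, Ctsl, Gaa, Gla, Glb1, Lamp1, Lgmn, Mcoln1 and Naglu, which include proteases, glycosidases, a sulfatase and membrane proteins. GTCACGTG, searched on both strands and overlapping CACGTG by construction, occurred in 10 of the 35 (28.6%) and in 2.55% of all genes, TCACGTGA in 5 (14.3%) and 1.13%, and the full palindrome, GTCACGTG followed by AC, in 1, Cln3, and 0.37%. These are matches of letters in a fixed window and do not show binding.

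The 250 bases before the start are printed below for 4 members with the E-box and, for comparison, for Cd68 and Grn, the members with the largest fold changes below, whose windows held none. Each is given 5′ to 3′ in the direction of the gene, from RefSeq (GRCm38.p6), and capitals mark CACGTG with the directly adjoining bases that match this palindrome. They lie at chr8:13158911-13159160 on the plus strand (Lamp1), chr7:126583237-126583486 on the minus strand (Cln3), chr7:142387828-142388077 on the minus strand (Ctsd), chr11:101069844-101070093 on the plus strand (Naglu), chr11:69666171-69666420 on the minus strand (Cd68) and chr11:102430257-102430506 on the plus strand (Grn). The Lamp1 stretch holds 4 E-boxes, those of Cln3 and Ctsd 2 each and that of Naglu 1. For Cln3 RefSeq gave 2 windows, and the one printed belongs to a start inside the gene, while the window at the gene's outer start, whose upstream bases are chr7:126585818-126586067, held no CACGTG. Ctsa and Lgmn likewise had 2 windows each, with CACGTG only in the one at a start inside the gene.
Lamp1: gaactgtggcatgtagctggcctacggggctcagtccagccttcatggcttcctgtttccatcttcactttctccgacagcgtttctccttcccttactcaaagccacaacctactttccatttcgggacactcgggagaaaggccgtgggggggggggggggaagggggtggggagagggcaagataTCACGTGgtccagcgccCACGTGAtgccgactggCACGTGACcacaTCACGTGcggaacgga
Cln3: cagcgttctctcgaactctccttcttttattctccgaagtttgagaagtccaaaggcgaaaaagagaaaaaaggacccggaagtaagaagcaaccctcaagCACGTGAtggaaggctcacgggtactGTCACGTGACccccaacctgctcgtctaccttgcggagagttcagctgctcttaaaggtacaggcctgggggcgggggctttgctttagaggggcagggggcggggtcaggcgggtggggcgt
Ctsd: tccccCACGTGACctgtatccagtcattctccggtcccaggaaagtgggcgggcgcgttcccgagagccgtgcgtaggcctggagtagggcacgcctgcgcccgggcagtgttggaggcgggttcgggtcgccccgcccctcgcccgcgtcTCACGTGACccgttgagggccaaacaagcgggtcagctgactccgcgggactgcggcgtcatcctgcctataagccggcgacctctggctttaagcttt
Naglu: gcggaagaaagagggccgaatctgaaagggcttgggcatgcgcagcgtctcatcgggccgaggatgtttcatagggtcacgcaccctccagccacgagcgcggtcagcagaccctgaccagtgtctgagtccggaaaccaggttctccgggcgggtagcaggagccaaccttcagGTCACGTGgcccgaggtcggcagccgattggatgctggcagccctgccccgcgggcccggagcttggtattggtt
Cd68: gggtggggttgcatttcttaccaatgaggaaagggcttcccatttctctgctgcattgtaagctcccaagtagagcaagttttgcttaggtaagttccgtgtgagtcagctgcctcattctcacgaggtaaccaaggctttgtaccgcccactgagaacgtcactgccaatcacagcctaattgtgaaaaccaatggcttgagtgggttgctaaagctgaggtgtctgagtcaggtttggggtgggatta
Grn: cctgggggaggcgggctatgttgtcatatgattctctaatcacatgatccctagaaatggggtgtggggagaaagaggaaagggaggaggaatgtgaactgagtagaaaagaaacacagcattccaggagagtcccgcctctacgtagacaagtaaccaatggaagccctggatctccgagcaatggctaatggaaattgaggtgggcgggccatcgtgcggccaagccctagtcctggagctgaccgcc

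Between genotypes, 2 of the 39 lysosomal genes rose and none fell when the library labelled homozygous replicate 1 was left out. Cd68 rose 1.77-fold and Grn 1.52-fold in homozygous over heterozygous cords. Over all 8 libraries no member passed edgeR's quasi-likelihood test with Benjamini-Hochberg adjustment over all genes at 0.05. In the 7-library comparison the test called 0.55% of all 16560 genes tested higher and 0.67% lower, and in the 8-library comparison 0% higher and 0% lower of 16511. In whole tissue, a change in the number of cells of a type and a change in RNA per cell cannot be told apart.

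Counted over all 39 members, 24 (61.5%) had a positive log2 fold change over 7 libraries, against 50.5% of all genes, and 25 (64.1%) over 8 libraries, against 50.4%. On the log2 TPM scale, on which the median gene tested shifted to -0.175 over 7 libraries, 9 of 39 were positive, and 23 of 39 after each library was centred on its median gene. At an unadjusted p under 0.05, 10 members (25.6%) were higher and 2 (5.13%) lower over 7 libraries, against 9.51% and 9.94% of all genes. Over 8 libraries 8 (20.5%) were higher and 1 (2.56%) lower, against 7.87% and 8.9%. The homozygous libraries lay above all heterozygous ones in 11 members (28.2%) and below in 1 (2.56%) over 7 libraries, against 9.76% and 8.77% of all genes. Over 8 libraries, with the library labelled homozygous replicate 1, these counts were 4 (10.3%) and 0, against 4.61% and 4.67%. The members were not drawn independently of one another, since many are expressed together. The median log2 fold change of 0.06 over 7 libraries dropped to 0.01 without homozygous replicate 4, when 20 of 39 were positive.

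**Figure D2:**
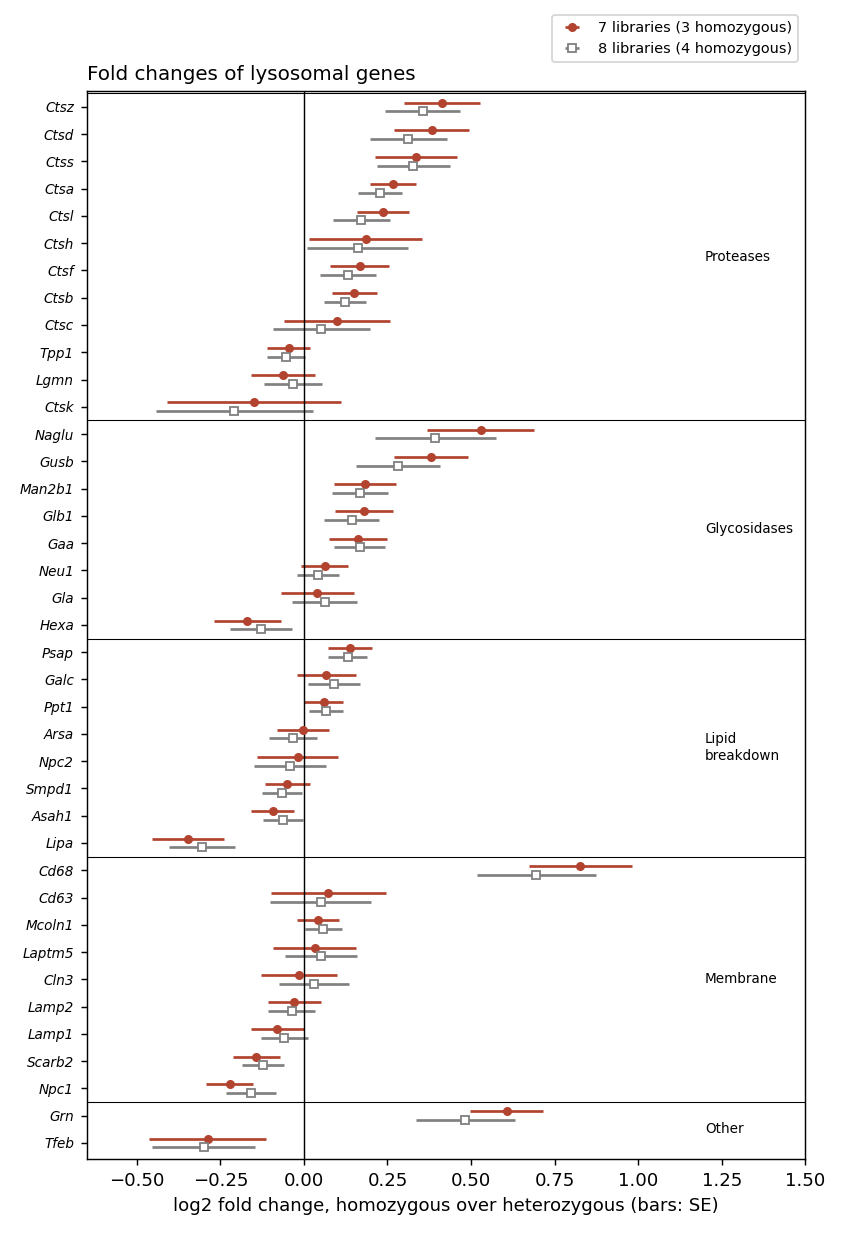
log2 fold change of each lysosomal gene, homozygous over heterozygous, by role, with bars of 1 SE from edgeR, over 7 libraries (filled circles) and over all 8 (open squares). Cd68 and Grn lie farthest to the right, most proteases and glycosidases lie right of 0 and Lipa, Tfeb and Npc1 lie left of it.

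Cd68 lies on chromosome 11 from 69664213 to 69666153 on the minus strand (GRCm38). Its level was 6.74, 8.37, 9.47 and 12.8 CPM in homozygous replicates 1 to 4, against 6.28, 5.65, 5.97 and 5.16 CPM in heterozygous replicates 1 to 4. Homozygous replicates 2, 3 and 4 lay above every heterozygous library, with replicate 4 the farthest, and the library labelled homozygous replicate 1 lay above them too but nearest to their range. Over 7 libraries it averaged 10.2 ± 2.32 CPM in homozygous and 5.77 ± 0.479 CPM in heterozygous cords (SD, n = 3 and 4), a log2 fold change of 0.83 (SE 0.15, edgeR adjusted p = 0.0406). Over 8 libraries the log2 fold change was 0.70 (SE 0.18, edgeR adjusted p = 0.135). Leaving out 1 further library lost the call in 5 of 7 fits, those without homozygous replicates 2 or 3 or heterozygous replicates 2, 3 or 4, with log2 fold changes between 0.62 and 0.95 over the 7 fits.

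Grn, whose product is cut into granulins in the lysosome and supports its acidity and hydrolases, lies on chromosome 11 from 102430315 to 102437048 on the plus strand (GRCm38). Its level was 48.8, 63.3, 67.3 and 85.9 CPM in homozygous replicates 1 to 4, against 42.8, 45.9, 52.0 and 49.1 CPM in heterozygous replicates 1 to 4. Homozygous replicates 2, 3 and 4 lay above all heterozygous libraries, and the library labelled homozygous replicate 1 lay within their range. The 7-library means were 72.2 ± 12.1 CPM in homozygous and 47.4 ± 4.002 CPM in heterozygous cords (SD, n = 3 and 4), with a log2 fold change of 0.61 (SE 0.11, edgeR adjusted p = 0.0406). Over 8 libraries it was 0.48 (SE 0.15, edgeR adjusted p = 0.176). The call was lost in 6 of the 7 fits that left out 1 further library and held only without homozygous replicate 4, with log2 fold changes between 0.46 and 0.69.

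Both calls also depended on the tool and scale. Cd68 lost its call without scaling factors, with limma-voom, with a non-robust fit and on the log2 TPM scale, where its log2 fold change was 0.49, and Grn lost it under the same settings except the non-robust fit, at 0.41 on that scale. DESeq2 called 5 members higher over 7 libraries (Cd68, Grn, Ctsa, Ctsd and Ctsz) and 4 over 8 (Cd68, Grn, Ctsa and Psap), and none lower in either. It called 2.57% of all genes higher and 3.8% lower over 7 libraries, and 1.57% and 2.39% over 8. Limma-voom called none of the members in either comparison, with 0.332% of all genes higher and 0.326% lower over 7 libraries, and 0% in both directions over 8.

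**Figure D3:**
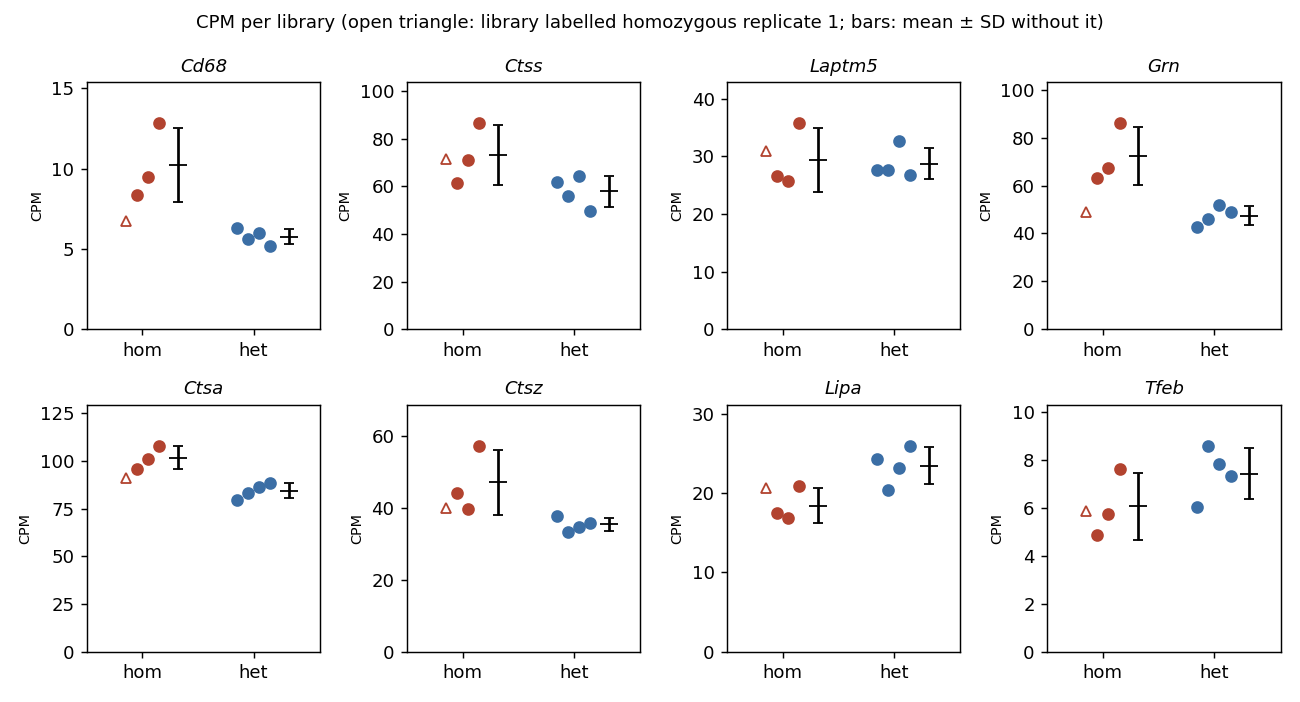
CPM of 8 lysosomal genes in each library, homozygous left of heterozygous, with the mean ± SD of homozygous replicates 2 to 4 and of the 4 heterozygous libraries as bars and the library labelled homozygous replicate 1 as an open triangle outside the bars. The 3 filled homozygous points and the triangle lie above the heterozygous points for Cd68, Ctsa and Ctsz, while for Laptm5 and Tfeb the groups overlap.

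The phagocyte-enriched members beside Cd68 did not pass the test. Ctss was at 71.7, 61.7, 71.2 and 86.5 CPM in homozygous replicates 1 to 4, against 61.7, 55.9, 64.4 and 49.9 CPM in heterozygous replicates 1 to 4. The groups overlapped through homozygous replicate 2, and the log2 fold change of 0.34 over 7 libraries (SE 0.12, edgeR adjusted p = 0.179) and of 0.33 over 8 (edgeR adjusted p = 0.188) did not pass. Laptm5 was at 30.9, 26.6, 25.7 and 35.7 CPM in homozygous replicates 1 to 4, against 27.7, 27.6, 32.7 and 26.9 CPM in heterozygous replicates 1 to 4. Its groups were interspersed, with log2 fold changes of 0.03 over 7 libraries (SE 0.12, edgeR adjusted p = 0.908) and 0.05 over 8 (edgeR adjusted p = 0.84), and on the log2 TPM scale the sign turned to -0.41 over 7 libraries. Cd68, Ctss and Laptm5 had a median log2 fold change of 0.34 over 7 libraries and 0.33 over 8, against 0.06 for the other 36 members in both comparisons and 0.0027 and 0.0015 for all genes tested over 7 and 8 libraries. Both medians of the 3 are the values of Ctss, and the 3 ranged from 0.03 (Laptm5) to 0.83 (Cd68) over 7 libraries.

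Some markers of macrophages and microglia moved with these members. The sum of 10 such markers (Csf1r, Aif1, Itgam, Ptprc, Tyrobp, Fcer1g, C1qa, C1qb, C1qc and Spi1) was 279.5, 287.6, 302.5 and 383.9 CPM in homozygous replicates 1 to 4, against 253.5, 228.7, 287.6 and 251.8 CPM in heterozygous replicates 1 to 4. C1qa and C1qb, subunits of complement C1q, rose among these 10 over 7 libraries (edgeR adjusted p = 0.0178 and 0.0466) and none fell. Of all genes, 0.55% were called higher and 0.67% lower. Of the 10, 7 had positive log2 fold changes, against 50.5% of all genes, with a median of 0.34. Homozygous lay above all heterozygous libraries in 5, against 9.76% of all genes, and below in 1, against 8.77%. That one was Itgam, an integrin subunit of myeloid cells, at 23.1, 7.70, 10.8 and 18.5 CPM in homozygous replicates 1 to 4, against 18.8, 19.4, 23.7 and 21.5 CPM in heterozygous replicates 1 to 4, a log2 fold change of -0.75 (edgeR adjusted p = 0.179). Csf1r, the receptor on which microglia depend, gave -0.16 (edgeR adjusted p = 0.43) and Ptprc, which marks leukocytes, -0.11 (edgeR adjusted p = 0.807). No marker of the list was at 0 in every library. Of 12 genes linked to disease-associated microglia Clec7a rose (edgeR adjusted p = 0.0122). Over 7 libraries 9 of the 12 had positive log2 fold changes, against 50.5% of all genes, with a median of 0.49. Axl, Cd9 and Igf1 went the other way, at -0.16, -0.14 and -0.14. Cst7 and Itgax, also among the positive genes, had edgeR adjusted p of 0.0122 and 0.0406. Both passed the filter on low counts only with the homozygous libraries in which they were high. For Cst7 0 heterozygous libraries reached the filter, so it had to differ. For Itgax 2 did, where 3 libraries were needed, so the filter favoured a difference. The count of 9 and the median of 0.49 include both genes and, like both calls, are given as a description. Over 8 libraries 11 of the 12 were tested, Cst7 not among them. Of these 11, 8 were positive, against 50.4% of all genes, with a median of 0.33. Of 10 genes of resting microglia Tmem119 fell (edgeR adjusted p = 0.0462). Over 7 libraries 0 of the 10 had positive log2 fold changes, against 50.5% of all genes, with a median of -0.45. Before adjustment (edgeR p under 0.05) 7 were lower, against 9.94% of all genes. In 4 the homozygous libraries lay below all heterozygous ones, against 8.77%. Over 8 libraries 1 of the 10 was positive, against 50.4% of all genes, with a median of -0.31. The summed resting markers were 205, 127, 150 and 189 CPM in homozygous and 189, 195, 227 and 195 CPM in heterozygous cords. Markers of monocytes and neutrophils summed to 5.25, 13.1, 7.86 and 38.8 CPM in homozygous cords, highest in replicate 4, and to 7.86, 6.32, 13.4 and 10.4 CPM in heterozygous cords. The part of these cell types in the rise of Cd68 and Grn was not tested.

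Relative to the summed macrophage and microglia markers, the phagocyte-enriched members and Grn differed in their pattern. Cd68 amounted to 2.41%, 2.91%, 3.13% and 3.34% of that sum in homozygous replicates 1 to 4, against 2.48%, 2.47%, 2.08% and 2.05% in heterozygous replicates 1 to 4. Replicates 2, 3 and 4 of the homozygous group thus lay above the heterozygous range also on this measure, and replicate 1 within it. Grn gave 17.5%, 22.0%, 22.3% and 22.4% in homozygous cords and 16.9%, 20.1%, 18.1% and 19.5% in heterozygous cords, with the same separation of replicates 2, 3 and 4. Ctss overlapped, with 25.6%, 21.4%, 23.6% and 22.5% in homozygous and 24.4%, 24.5%, 22.4% and 19.8% in heterozygous cords. Laptm5, at 11.1%, 9.24%, 8.48% and 9.31% in homozygous cords, lay below the heterozygous values of 10.9%, 12.1%, 11.4% and 10.7% in replicates 2, 3 and 4. These shares are descriptions of the libraries, and genes of a sum are not replicates.

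**Figure D4:**
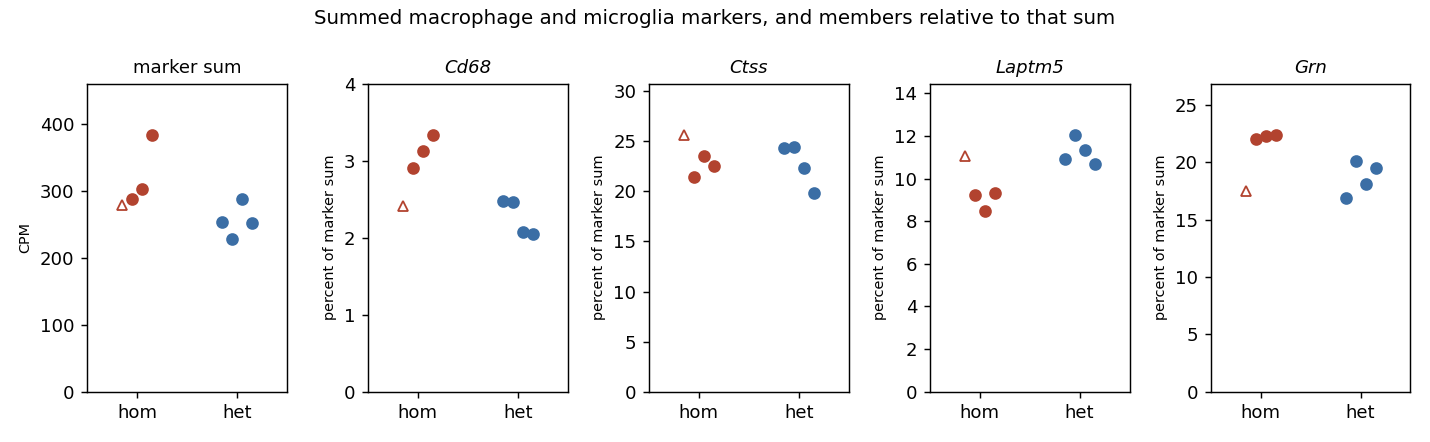
Summed CPM of 10 macrophage and microglia markers, and Cd68, Ctss, Laptm5 and Grn as a percent of that sum, in each library, homozygous left of heterozygous and with the library labelled homozygous replicate 1 as an open triangle. For Cd68 and Grn the 3 filled homozygous points lie above all heterozygous points, for Laptm5 below them, and for Ctss the groups overlap.

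Most proteases had positive fold changes, without a call. Of the 12, 9 had a positive log2 fold change over 7 libraries (median 0.18) and 5 had all 3 homozygous above all heterozygous libraries, against 50.5% and 9.76% of all genes, yet none passed edgeR's test in either direction. Before adjustment (p under 0.05) 6 proteases stood higher and 0 lower, against 9.51% and 9.94% of all genes. DESeq2 called 3 higher, against 2.57% of all genes, and limma-voom none. On the log2 TPM scale 5 of 12 were positive, and 8 of 12 when each library was centred on its median gene. Over 8 libraries 9 of 12 were positive, against 50.4% of all genes, with a median of 0.15, and 2 had all 4 libraries labelled homozygous above all heterozygous libraries, against 4.61% of all genes.

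Ctsa, the carboxypeptidase that also protects lysosomal galactosidase and sialidase, had the smallest p of the 12 proteases. Its level was 91.0, 95.8, 101 and 108 CPM in homozygous replicates 1 to 4, against 79.7, 83.3, 86.5 and 88.4 CPM in heterozygous replicates 1 to 4. The groups did not overlap with or without the library labelled homozygous replicate 1. The log2 fold change was 0.27 over 7 libraries (SE 0.07, edgeR adjusted p = 0.0844) and 0.23 over 8 (edgeR adjusted p = 0.153). Ctsz, a cysteine carboxypeptidase, was at 39.8, 44.2, 39.7 and 57.2 CPM in homozygous replicates 1 to 4, against 37.7, 33.2, 34.6 and 35.9 CPM in heterozygous replicates 1 to 4. Its groups did not overlap either, and the log2 fold change was 0.41 over 7 libraries (SE 0.11, edgeR adjusted p = 0.101) and 0.35 over 8 (edgeR adjusted p = 0.176).

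Ctsd, the main aspartic protease of the lysosome, was at 464, 496, 529 and 689 CPM in homozygous replicates 1 to 4, against 434, 399, 455 and 466 CPM in heterozygous replicates 1 to 4. The library labelled homozygous replicate 1 lay within the heterozygous range and homozygous replicate 4 stood far above it. The log2 fold change was 0.38 over 7 libraries (SE 0.11, edgeR adjusted p = 0.116) and 0.31 over 8 (edgeR adjusted p = 0.222). Ctsl gave 0.24 and Ctsb 0.15 over 7 libraries, with all 3 homozygous above all heterozygous libraries and edgeR adjusted p of 0.142 and 0.253, and 0.17 and 0.12 over 8, with edgeR adjusted p of 0.332 and 0.338 and overlapping groups. Legumain (Lgmn), which activates several cathepsins, tripeptidyl peptidase (Tpp1) and Ctsk had negative values of -0.06, -0.05 and -0.15, all with overlapping groups. Ctsc, the dipeptidyl peptidase that activates granule proteases of leukocytes, reached 11.7 CPM in homozygous replicate 4 but 7.82 to 8.02 CPM in the other homozygous and 7.72 to 9.32 CPM in the heterozygous cords.

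Among the glycosidases, which remove sugars from glycoproteins, glycolipids and glycogen, 7 of 8 had positive log2 fold changes over 7 libraries, against 50.5% of all genes, with a median of 0.17. None passed edgeR's test, 2 stood higher and 0 lower before adjustment (p under 0.05), against 9.51% and 9.94% of all genes, and neither DESeq2 nor limma-voom called any. On the log2 TPM scale 2 of 8 were positive, and 7 of 8 after centring. Over 8 libraries 7 of 8 were positive, against 50.4% of all genes, with a median of 0.16, and none had separated groups. Naglu, which takes part in the breakdown of heparan sulfate, was at 5.12, 7.29, 7.70 and 8.61 CPM in homozygous replicates 1 to 4, against 4.12, 5.65, 5.45 and 6.60 CPM in heterozygous replicates 1 to 4. Its log2 fold change was 0.53 over 7 libraries (SE 0.16, edgeR adjusted p = 0.12) and 0.39 over 8 (edgeR adjusted p = 0.307), with the library labelled homozygous replicate 1 inside the heterozygous range.

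Gusb, the beta-glucuronidase, was at 11.7, 13.7, 17.0 and 16.9 CPM in homozygous replicates 1 to 4, against 10.9, 12.1, 13.5 and 12.3 CPM in heterozygous replicates 1 to 4. Replicates 2, 3 and 4 lay above the heterozygous range, and the log2 fold change was 0.38 over 7 libraries (SE 0.11, edgeR adjusted p = 0.11) and 0.28 over 8 (edgeR adjusted p = 0.294). The beta-galactosidase gene Glb1 was at 24.1, 26.8, 27.0 and 26.7 CPM in homozygous replicates 1 to 4, against 20.8, 22.7, 26.1 and 25.1 CPM in heterozygous replicates 1 to 4. Its log2 fold change was 0.18 over 7 libraries (edgeR adjusted p = 0.289) and 0.14 over 8 (edgeR adjusted p = 0.395). Gaa, which digests glycogen, and Man2b1, an alpha-mannosidase, had values of 0.16 and 0.18 with overlapping groups. Hexa, the alpha subunit of beta-hexosaminidase, was the exception at -0.17 over 7 libraries (SE 0.10, edgeR adjusted p = 0.38) and -0.13 over 8 (edgeR adjusted p = 0.496).

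The genes of lipid breakdown were divided, 3 of 8 having positive log2 fold changes over 7 libraries, against 50.5% of all genes, with a median of -0.01. Over 8 libraries 3 of 8 were positive, against 50.4% of all genes, with a median of -0.04. On the log2 TPM scale 0 of 8 were positive over 7 libraries, and 4 after centring. None passed edgeR's test, 0 stood higher and 1 lower before adjustment (p under 0.05), against 9.51% and 9.94% of all genes, and neither DESeq2 nor limma-voom called any over 7 libraries. Psap was at 1947, 2050, 1971 and 1936 CPM in homozygous replicates 1 to 4, against 1821, 1776, 1848 and 1773 CPM in heterozygous replicates 1 to 4. Homozygous replicates 2, 3 and 4 and the library labelled homozygous replicate 1 lay above all heterozygous libraries. The difference was small, with a log2 fold change of 0.14 over 7 libraries (SE 0.07, edgeR adjusted p = 0.286) and 0.13 over 8 (edgeR adjusted p = 0.292), and its sign turned on the log2 TPM scale.

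Lipa, the acid lipase that frees cholesterol and fatty acids from lipoprotein lipids, was at 20.6, 17.5, 16.8 and 20.9 CPM in homozygous replicates 1 to 4, against 24.3, 20.4, 23.2 and 25.95 CPM in heterozygous replicates 1 to 4. The groups touched through heterozygous replicate 2. The log2 fold change was -0.35 over 7 libraries (SE 0.11, edgeR adjusted p = 0.129) and -0.30 over 8 (edgeR adjusted p = 0.182). The enzymes that act on myelin sphingolipids showed no separation. Over 7 libraries Galc, the galactosylceramidase lost in Krabbe disease, gave 0.07, Arsa, the sulfatase lost in metachromatic leukodystrophy, -0.0028, the acid sphingomyelinase gene Smpd1 -0.05 and the acid ceramidase gene Asah1 -0.09, with edgeR adjusted p of 0.452 to 0.988 and overlapping groups.

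Among the 9 membrane proteins Cd68 was the only one to pass the test over 7 libraries. The test called 0.55% of all genes higher and 0.67% lower. Of the 9, 4 had positive log2 fold changes, against 50.5% of all genes, and the median was -0.01. Over 8 libraries 5 were positive, against 50.4% of all genes, and the median was 0.03. On the log2 TPM scale 1 was positive over 7 libraries and 3 after centring. Npc1, which exports cholesterol from the lysosome, was at 82.1, 72.4, 67.8 and 69.0 CPM in homozygous replicates 1 to 4, against 76.8, 76.3, 86.5 and 85.5 CPM in heterozygous replicates 1 to 4. Replicates 2, 3 and 4 lay below all heterozygous libraries, while the library labelled homozygous replicate 1 lay among them. The log2 fold change was -0.22 over 7 libraries (SE 0.07, edgeR adjusted p = 0.136) and -0.16 over 8 (edgeR adjusted p = 0.32). Its luminal partner Npc2, which hands cholesterol to NPC1, gave -0.02 over 7 libraries with overlapping groups.

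The structural membrane proteins gave small values over 7 libraries. Lamp1 was at 417, 370, 381 and 434 CPM in homozygous replicates 1 to 4, against 396, 400, 448 and 424 CPM in heterozygous replicates 1 to 4, and its log2 fold change of -0.08 over 7 libraries (SE 0.08, edgeR adjusted p = 0.612) and -0.06 over 8 (edgeR adjusted p = 0.694) had overlapping groups. Lamp2, which is needed for fusion with autophagosomes, gave -0.03, and Scarb2, the receptor that carries glucocerebrosidase to lysosomes, -0.14 (SE 0.07, edgeR adjusted p = 0.297), or -0.12 over 8 (edgeR adjusted p = 0.347). The calcium channel gene Mcoln1 gave 0.04 and was the steadiest member of the heterozygous group, with a coefficient of variation of 1.36%. Cln3, a membrane protein lost in juvenile Batten disease, gave -0.01, and the tetraspanin gene Cd63 0.07.

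Tfeb, on chromosome 17 from 47737030 to 47792419 on the plus strand (GRCm38), was at 5.88, 4.88, 5.72 and 7.60 CPM in homozygous replicates 1 to 4, against 6.01, 8.58, 7.81 and 7.31 CPM in heterozygous replicates 1 to 4. The groups overlapped, and the log2 fold change was -0.29 over 7 libraries (SE 0.18, edgeR adjusted p = 0.392) and -0.30 over 8 (edgeR adjusted p = 0.349). TFEB is controlled largely by its place in the cell, which these data do not measure. The 13 members with CACGTG in the window had a median log2 fold change of 0.16 over 7 libraries, 9 of them positive and 5 with homozygous above all heterozygous libraries. The 22 without it had a median of 0.06, with 13 positive and 5 so separated. Of all genes 50.5% were positive and 9.76% so separated, and the number of members in each set is small. Over 8 libraries the medians were 0.13 and 0.05, and for the longer GTCACGTG the order turned over 7 libraries, with 0.04 for the 10 members that held it and 0.07 for the other 25. No window of Tfeb itself held CACGTG, and neither did those of Cd68, Grn, Ctss and Laptm5.

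Homozygous replicate 4 had the most members above the heterozygous range. In it 21 members exceeded every heterozygous library and 2 lay below every one, against 24.9% and 23.4% of all genes, and its median log2 ratio to the heterozygous mean was 0.14. In homozygous replicate 2 these counts were 15 and 14, against 27.4% and 25% of all genes, and in homozygous replicate 3 they were 15 and 8, against 28.7% and 28%. In the library labelled homozygous replicate 1 they were 8 and 2, against 17% and 18.8% of all genes. The median log2 ratios were -0.01 in replicate 2, 0.03 in replicate 3 and 0.02 in the library labelled replicate 1. Replicate 4 was also the library with the highest sums of oligodendrocyte markers, of macrophage and microglia markers and of monocyte and neutrophil markers, and the one with the lower RNA integrity number, and their part in its lysosomal values was not tested. The coefficient of variation of Cd68 was 22.7% over homozygous replicates 2 to 4 and 8.31% over the heterozygous libraries, that of Ctsz 19.3% over these homozygous and 5.29% over the heterozygous libraries, and that of Ctsd 18.1% and 6.75% in the same order, while the median over members was 7.38% in homozygous replicates 2 to 4 and 8.22% in the heterozygous libraries.

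**Figure D5:**
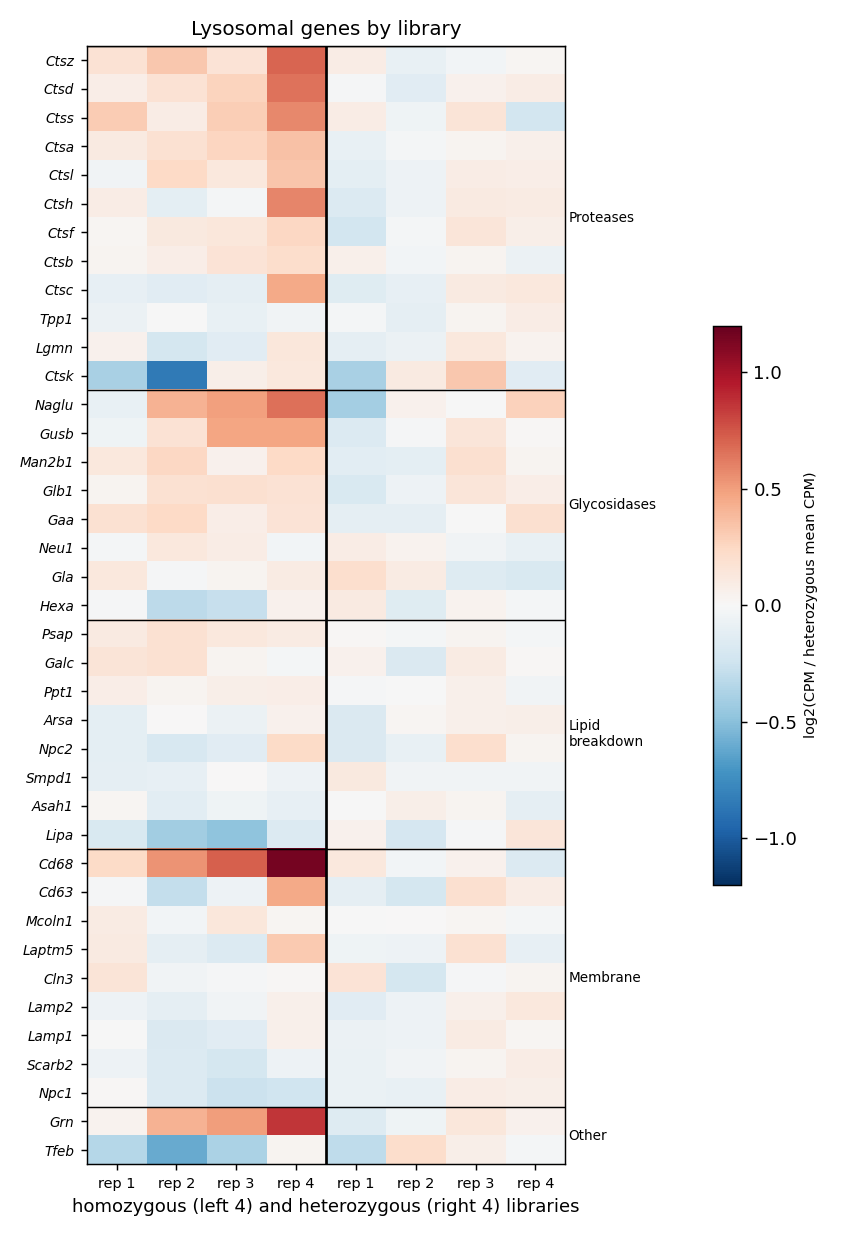
log2 ratio of each library's CPM to the heterozygous mean CPM for the 39 lysosomal genes, by role, with the 4 homozygous libraries left of the 4 heterozygous ones. Red marks values above the heterozygous mean and blue below; homozygous replicate 4 is the reddest column, with Cd68 at 1.15 and Grn at 0.86.

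Other genes of the lysosomal pathway showed few calls by edgeR over 7 libraries and none by edgeR over 8. Of 19 tested subunits of the V-ATPase proton pump (20 listed), 1 fell, 15 had positive log2 fold changes, against 50.5% of all genes (1 on the log2 TPM scale and 14 after centring) and the median was 0.10. The one was Atp6v0a2, an isoform of the membrane-embedded a subunit, at 63.9, 57.1, 53.8 and 54.4 CPM in homozygous replicates 1 to 4, against 74.0, 67.5, 69.1 and 71.8 CPM in heterozygous replicates 1 to 4. Homozygous replicates 2, 3 and 4 lay below all heterozygous libraries, and so did the library labelled homozygous replicate 1 at 63.9 CPM. The log2 fold change was -0.36 over 7 libraries (SE 0.06, edgeR adjusted p = 0.0345) and -0.30 over 8 (edgeR adjusted p = 0.12). The call was lost in 5 of the 7 fits without 1 further library, held only without homozygous replicate 4 or heterozygous replicate 1, and the log2 fold changes ran between -0.38 and -0.33.

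Cst7, which encodes cystatin F, an inhibitor that reaches the lysosome and restrains Ctsc and other cysteine cathepsins, was the only one of 5 cathepsin inhibitors with a call by edgeR over 7 libraries. It was at 0.235, 0.893, 1.45 and 2.84 CPM in homozygous replicates 1 to 4, against 0.107, 0.0332, 0.137 and 0.105 CPM in heterozygous replicates 1 to 4. Cst7 was tested over 7 libraries only because its 3 homozygous libraries reached the filter on low counts, which 0 of the 4 heterozygous ones did, so it had to differ and the separation of the groups is a description. The log2 fold change was 4.10 (SE 0.49, edgeR adjusted p = 0.0122), at levels of few counts, and the call was lost without homozygous replicate 3. Over 8 libraries its counts did not pass the filter and it was not tested. All 39 lysosomal genes, in contrast, reached that filter in the heterozygous libraries alone. Cst7 is also one of the markers of disease-associated microglia used above.

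None of the other lists held a call by edgeR or limma-voom with the filter and scale used throughout. Gnptg passed edgeR over 7 libraries when the filter was 1 CPM in 4 libraries (edgeR adjusted p = 0.0491), and Wipi1 passed limma over 7 libraries on log2(TPM + 1) and log2(TPM + 0.1) (limma adjusted p = 0.0285 and 0.0264). Over 7 libraries 9.51% of all genes stood higher before adjustment (p under 0.05) and 9.94% lower, while DESeq2 called 2.57% higher and 3.8% lower, and the counts of each list are read beside these shares. Of 28 further lysosomal hydrolases and cofactors, 3 stood higher and 0 lower unadjusted, DESeq2 called none, and the smallest p belonged to Galns, a sulfatase of keratan sulfate, at 0.43 (edgeR adjusted p = 0.101). Of 26 further membrane proteins 6 were higher and 2 lower unadjusted, DESeq2 called 2 higher and 1 lower, and Cln6, an ER protein needed to supply lysosomal enzymes, led at 0.48 (edgeR adjusted p = 0.0709). Of 15 genes that deliver enzymes to lysosomes 1 was higher and 3 lower unadjusted, DESeq2 called 1 higher, and Gnptg, a subunit of the enzyme that makes the mannose 6-phosphate tag, led at 0.28 (edgeR adjusted p = 0.0524). Of 20 tested relatives of TFEB and genes of the Rag-Ragulator-mTORC1 complex (21 listed), none was higher and 1 lower unadjusted, DESeq2 called none, and the one was the TFEB relative Mitf at -0.35 (edgeR adjusted p = 0.166). Of 21 autophagy genes 1 was higher and 2 lower unadjusted, DESeq2 called 1 higher and 2 lower, and Wipi1, which binds forming autophagosomes, had the smallest p at -0.35 (edgeR adjusted p = 0.0709). Over 8 libraries edgeR and limma-voom called no gene of these lists, of the pump or of the inhibitors. DESeq2 called 1 delivery gene higher and 1 gene lower in each of the pump, membrane and autophagy lists, against 1.57% and 2.39% of all genes. Before adjustment, over 8 libraries, where 7.87% of all genes stood higher and 8.9% lower, 4 pump genes stood higher and 1 lower, 2 and 1 of the hydrolases, 2 and 2 of the membrane proteins, 1 and 0 of delivery, 1 and 1 of the TFEB relatives, 2 and 2 of autophagy and 0 and 0 of the inhibitors. The medians over 7 libraries were 0.01 for the hydrolases, 0.01 for the membrane proteins, -0.05 for delivery, 0.03 for the TFEB relatives and 0.01 for autophagy.

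The authors' deposited table of their own comparison lists 185 genes, 75 with a positive and 110 with a negative log2 fold change and none with a false discovery rate above 0.0936, and holds none of the 39 lysosomal genes.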

How the data were processed

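Per the submitters' processing notes, cutadapt, STAR, RSEM and Picard were used with the mm10 build; no version, setting or annotation is stated for them. The authors deposited an RSEM table for each library with expected counts and TPM per gene, per the file headers, beside FPKM and effective lengths. Their series table of expected counts was identical to these (largest difference 0). Their table of the genotype comparison gives a log2 fold change, p-value and false discovery rate for each gene it lists, per the file headers.

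Expected counts were rounded to whole numbers. Homozygous was tested against heterozygous in R 4.3.3 with edgeR 4.0.16: TMM factors, the filterByExpr filter, glmQLFit with robust estimation, and p-values adjusted over all genes by Benjamini-Hochberg, at 0.05. The test was run on 8 libraries and on 7 without the library labelled homozygous replicate 1. CPM use TMM factors of all 8 libraries, and each SE belongs to its log2 fold change. Alternatives used DESeq2 1.42.0, limma 3.58.1, other scalings and filters, log2(TPM + 1) and log2(TPM + 0.1), and each library left out. TPM centred on each library's median gene and the motif GAGGAAGT were added after the data were seen. Simulated counts with 200 changed genes were used to test the code. RSEM divides reads among similar genes, and with 26321522 to 37879426 expected counts per library, genes under 1 CPM rest on few counts.

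The members, pathway lists and markers were chosen with earlier results of these data known, and the 7-library comparison because of the Arf1 level. Full statistics went to Cd68, Ctss, Laptm5, Grn and Tfeb, to members past the threshold and, per direction, to the 4 of smallest p. For the other lists they went to genes past the threshold or else to the smallest p. Values of Ctsd, Psap, Naglu, Gusb, Glb1, Lamp1 and further members were added beside these. Positions are from GENCODE M21 (GRCm38) and promoters from RefSeq (GRCm38.p6). Of 41 member windows, 36 had their bases after the start in a GENCODE transcript of the gene as given, and 0 as the reverse complement. Itgam had a duplicate symbol, of which the row with most counts was used. Tables and figures were made with Python 3.11.15, pandas 2.3.3 and matplotlib 3.10.9.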

Additional observations from a re-analysis of the deposited data

Results flagged for a closer look

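In 5 of the 78 groups of 4 libraries (39 members in each genotype), 1 library stood apart from the other 3, with a gap to its nearest neighbour, as a share of the group's range, above Dixon's 95% critical value. Chance flags about 1 in 20 such groups. Ctsc reached 11.74 CPM in homozygous replicate 4, against 7.82 to 8.02 CPM in the other homozygous libraries. Npc2 reached 77.54 CPM in homozygous replicate 4, against 57.7 to 61.0 CPM in the other homozygous libraries. Glb1 was lowest in homozygous replicate 1 as labelled, with 24.13 CPM, against 26.7 to 27.0 CPM in the other homozygous libraries. Laptm5 reached 32.69 CPM in heterozygous replicate 3, against 26.9 to 27.7 CPM in the other heterozygous libraries. Smpd1 reached 111 CPM in heterozygous replicate 1, against 99.0 to 99.5 CPM in the other heterozygous libraries.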

How the results depend on the processing

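Over 7 libraries, 2 members were higher with edgeR; the count was 5 with DESeq2, 1 (Grn) with the non-robust fit, and 0 without scaling factors, with limma-voom, on log2(TPM + 1), on log2(TPM + 0.1) and on log2(TPM + 1) with each library centred on its median gene. Leaving out 1 further library gave 0 to 2 higher members, both remaining only without homozygous replicate 4. On log2(TPM + 1) and log2(TPM + 0.1) 4 members were lower over 7 libraries (Lipa, Npc1, Scarb2 and Smpd1), and 0 after centring; the uncentred scales moved the median of all genes to -0.175 and -0.208 over 7 libraries and to -0.144 and -0.17 over 8. Over 8 libraries, where edgeR called 0, DESeq2 called 4. Leaving out 1 library gave 0 each time, except without the library labelled homozygous replicate 1, which is the 7-library comparison with its 2. Cd68 and Grn each kept their call under 7 of 18 alternatives and lost it under 11, with adjusted p from 0.000301 to 0.131 for Cd68 and from 0.000127 to 0.126 for Grn. The 7 include the looser threshold of 0.1 applied to the same fit, under which neither call could be lost.

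Signs turned as follows. On log2(TPM + 1) the median of the members was -0.126 over 8 and -0.164 over 7 libraries, and on log2(TPM + 0.1) it was -0.137 and -0.179; without scaling factors it was -0.00142 over 7. Laptm5 gave -0.305 over 8 and -0.41 over 7 libraries on log2(TPM + 1), -0.318 and -0.428 on log2(TPM + 0.1), -0.128 and -0.196 after centring, -0.0489 and -0.142 without homozygous replicate 4 (with 1 library left out it ran from -0.0489 to 0.12 over 8 and from -0.142 to 0.117 over 7), and -0.0253 over 7 without scaling factors. On log2(TPM + 1) Psap gave -0.043 and -0.0769, Ctsb -0.0523 and -0.0644 and Glb1 -0.0265 and -0.0298 over 8 and 7 libraries, and Ctsl -0.00824 over 8. On log2(TPM + 0.1) Psap gave -0.043 and -0.077, Ctsb -0.0526 and -0.0647 and Glb1 -0.0275 and -0.031, and Ctsl -0.00835 over 8. After centring, Psap, Ctsb, Glb1, Ctsl and the median of the members kept the sign of edgeR's fit, while Laptm5 did not. The cause was not tested. Of all 941 values of named genes under alternatives, 859 kept direction and side of the threshold, 29 lost a call, 30 gained one and 23 turned sign. The 941 include the looser threshold of 0.1 on the same fits, under which no sign could turn and no call could be lost.

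Over all genes edgeR called 91 higher and 111 lower over 7 libraries; the counts were 157 and 287 without a filter, 60 and 150 without scaling factors, 425 and 629 with DESeq2, 55 and 54 with limma-voom, 68 and 69 with the non-robust fit, 90 and 2065 on log2(TPM + 1), 92 and 2148 on log2(TPM + 0.1), 86 and 60 after centring, 367 and 467 at an adjusted p of 0.1, and from 3 and 3 without homozygous replicate 3 to 139 and 263 without homozygous replicate 4. Over 8 libraries edgeR called 0 and 0; the counts were 19 and 44 without a filter, 259 and 395 with DESeq2, 0 and 1 on both uncentred TPM scales, 2 and 0 after centring, 21 and 50 at an adjusted p of 0.1, and 4 and 36 without heterozygous replicate 1. No paired analysis was possible because the labels give each animal its own number and no number shared between the groups.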

Other observations

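A second motif gave a different set of members. GAGGAAGT, a core bound by PU.1-type factors of myeloid cells and searched on both strands, occurred in the promoter windows of 4 of the 35 matched members (11.4%), Ctsc, Ctss, Gla and Gusb, and in 3.69% of all 27025 genes with a window. Gla was the one member that held both this motif and CACGTG. As for the E-box, this is a match of letters and not a site.

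The estimated effective length of a gene, which RSEM derives from the mix of its transcripts, differed between libraries for some members and enters TPM but not CPM. Ctsh had effective lengths of 1387, 1219, 1344 and 1242 bases in homozygous replicates 1 to 4, against 1046, 859, 1155 and 1125 bases in heterozygous replicates 1 to 4, so the groups did not overlap and the ratio of means was 1.24. Laptm5 had 2021, 2123, 2416 and 2394 bases in homozygous replicates 1 to 4, against 2072, 2018, 1842 and 1918 bases in heterozygous replicates 1 to 4, with overlapping groups and a ratio of 1.14. No test of these lengths was made.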
